A study of Rattus norvegicus with 9 samples.

Results

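Heat shock proteins and chaperones were described across 9 rat kidney RNA-seq libraries. The genes were chosen by symbol alone from the authors' deposited expression table: HSP70, HSP90, HSP60, HSP10, HSP110 and small heat shock protein genes, J-domain genes (Dnaja, Dnajb, Dnajc) and numbered CCT chaperonin subunits. The rule found 76 of the 11235 genes in that table, and all 76 were among the 17335 genes with enough reads to be tested. No expression value entered the rule, but the table lists genes that reach 1 FPKM (read fragments scaled to transcript length and library size) in 8 or 9 of the libraries, so any chaperone gene close to silent in kidney is outside the account.

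All groups were wild-type Sprague-Dawley rats aged 6 to 8 weeks, with 3 libraries per group and all in batch 1 by the labels. In the I/R + rapamycin group the kidney had 45 min of ischaemia and then reperfusion, and the rats received rapamycin, an inhibitor of the kinase complex mTORC1. In the I/R group the rats had the same ischaemia and reperfusion with no rapamycin named, and no vehicle is named for any group. The sham group was operated on without ischaemia. The series design gave male rats, a clamp on the left renal artery and intraperitoneal rapamycin at 1 mg/kg per day. The protocols given with the samples instead name both sexes, oral gavage, 6 groups, doses of 1 or 2 mg/kg per day, and reperfusion lasting 3 or 7 days. Dose, route, sex and time of the sequenced kidneys are therefore unsettled. The labels name both kidney and renal tubular cell as the source. The tubule, endothelial, podocyte, macrophage and smooth muscle markers found in the deposited table were above 0 FPKM in every library. That table lists only genes that reach 1 FPKM in 8 or 9 libraries, so this cannot settle the source. Markers absent from it, such as 2 of the 10 macrophage markers, were not measured: 8 of the 10 were. The replicates are not said to be separate animals, and p-values then reflect only how far these libraries spread, which may be technical.

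Chaperones bind unfolded proteins and keep them from aggregating while they fold. HSP70 proteins do so in cycles of ATP use that J-domain proteins start and HSP110 proteins help to end, HSP90 finishes the folding of kinases and steroid receptors, small heat shock proteins hold unfolded clients without ATP, and the CCT ring folds actin and tubulin. The heat shock factor HSF1 switches on a set of cytosolic members within minutes of proteotoxic stress. The unfolded protein response switches on a separate set in the endoplasmic reticulum (ER). Most other members are made at a steady level in unstressed cells, and ischaemic kidney tubules are a textbook site of induction of the stress-inducible HSP70. Sorted by role, the 76 genes held 11 HSF1-inducible cytosolic members, 7 ER members inducible by the unfolded protein response, 8 constitutive cytosolic HSP70 and HSP90 members, 8 mitochondrial members, 7 CCT subunits, 3 other small heat shock members, 27 other J-domain members and 5 genes with pseudogene symbols.

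Libraries of the same group stood apart from each other, and this bears on every result below. Sham 3 was the highest library for 13.2% of all tested genes, against 72.7% of the HSF1-inducible members. I/R 1 was the lowest library for 16.6% of all tested genes, against 47.4% of the 76 members. Total counts ranged from 44582251 to 60538627 per library, so counting error was small for all but the lowest members. Fos, an immediate early gene switched on within minutes of tissue disturbance, was at 14.1, 15.0 and 24.5 CPM (counts scaled to library size, with TMM factors) in the I/R + rapamycin libraries, at 17.5, 260 and 316 CPM in I/R libraries, and 34.4, 200 and 512 CPM in the sham libraries. The red blood cell transcript Hba-a1 was at 80.7, 51.5 and 301 CPM with rapamycin, at 736, 1891 and 1869 CPM in I/R and at 178, 145 and 1513 CPM in sham. Values without sham 3 or I/R 1 stand beside many of the results that moved, but not beside all of them.

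Steady-state levels spanned a wide range and were led by members made without stress. Hspa8, the constitutive cytosolic HSP70 (Hsc70), was the most abundant at a mean of 696 FPKM over all libraries and stood at rank 45 of the 11235 genes of the table. Hsp90ab1, the constitutive cytosolic HSP90, followed at 266 FPKM, with the mitochondrial chaperonin Hspd1 (HSP60) at 260 FPKM. The library ranges, 205 to 337 FPKM for Hsp90ab1 and 228 to 290 FPKM for Hspd1, overlapped, so their order does not go beyond the spread. Next came the ER HSP70 Hspa5 (BiP) at 187 FPKM, the HSP60 partner Hspe1 (HSP10) at 185 FPKM, the mitochondrial HSP70 Hspa9 (mortalin) at 172 FPKM and the ER HSP90 Hsp90b1 (GRP94) at 148 FPKM. The ranges of these genes over the libraries overlapped, and their order within each library was not compared. All the genes named so far were the 7 members at 100 FPKM or more on average, while 24 members averaged under 10 FPKM. Together the 76 members took 0.89% to 0.911% of all counts in the I/R + rapamycin libraries, 0.814% to 1.03% in the I/R libraries and 0.883% to 1.19% in the sham libraries.

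**Figure D1:**
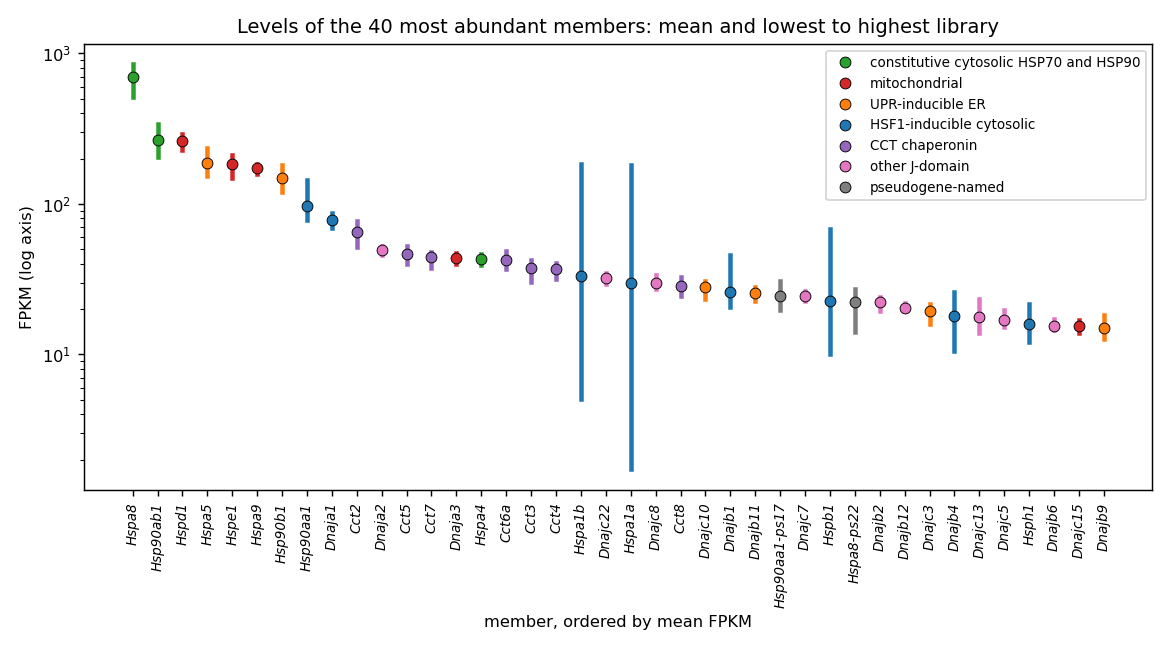
Level in FPKM (log axis) of the 40 most abundant members, ordered by mean and coloured by role; points are means over the 9 libraries and bars run from the lowest to the highest library. Hspa8 leads at 696 FPKM, and the long bars are those of Hspa1a (1.72 to 182 FPKM), Hspa1b (5.08 to 185 FPKM) and Hspb1 (9.99 to 67.8 FPKM), all HSF1-inducible.

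No member passed the threshold of edgeR's quasi-likelihood test (Benjamini-Hochberg adjusted p under 0.05) in any of the 3 comparisons. In I/R + rapamycin against I/R the count was 0 of 76 members, where 0.127% of all tested genes were called. In I/R + rapamycin against sham it was 0 of 76, where 0.156% of all genes were called, and in I/R against sham 0 of 76, where 0.0577% were called. The smallest adjusted p among members was 0.115, 0.115 and 0.283 in these comparisons in that order, each from edgeR. DESeq2, the alternative tool, called 4 members in I/R + rapamycin against I/R (Dnajc16, Dnajc19, Dnajc30 and Hsp90aa1-ps17), where it called 4% of all genes. With rapamycin against sham it called 3, Hspa1a, Hspa1b and Dnajb4 (3.22% of all genes), and for I/R against sham 0 (1.4% of all genes). The 2 comparisons that include the same group share its libraries, so their values are not independent of each other.

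Looser measures gave members a share near or below that of all genes. An unadjusted edgeR p under 0.05 was found for 11 members (14.5%) in I/R + rapamycin against I/R, where 16.3% of all genes had one. It was found for 8 members (10.5%) in I/R + rapamycin against sham, where the share of all genes was 13.8%, and for 7 members (9.21%) in I/R against sham, where it was 9.42%. The 3 libraries of each group did not overlap for 16 members (21.1%) with rapamycin against I/R, where 24.6% of all genes had groups apart. The count was 14 members (18.4%) with rapamycin against sham, beside 19.3% of all genes, and 11 members (14.5%) for I/R against sham, beside 14.6% of all genes. The median log2 fold change of the 76 members was 0.07, -0.047 and -0.10 in the 3 comparisons in that order, beside 0.006, 0.001 and 0.003 over all tested genes. In I/R against sham the fitted value was negative for 59 of the 76 members, and in I/R + rapamycin against I/R it was positive for 43. Without I/R 1 these counts were 52 and 41, and without sham 3 they were 55 and 42.

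**Figure D2:**
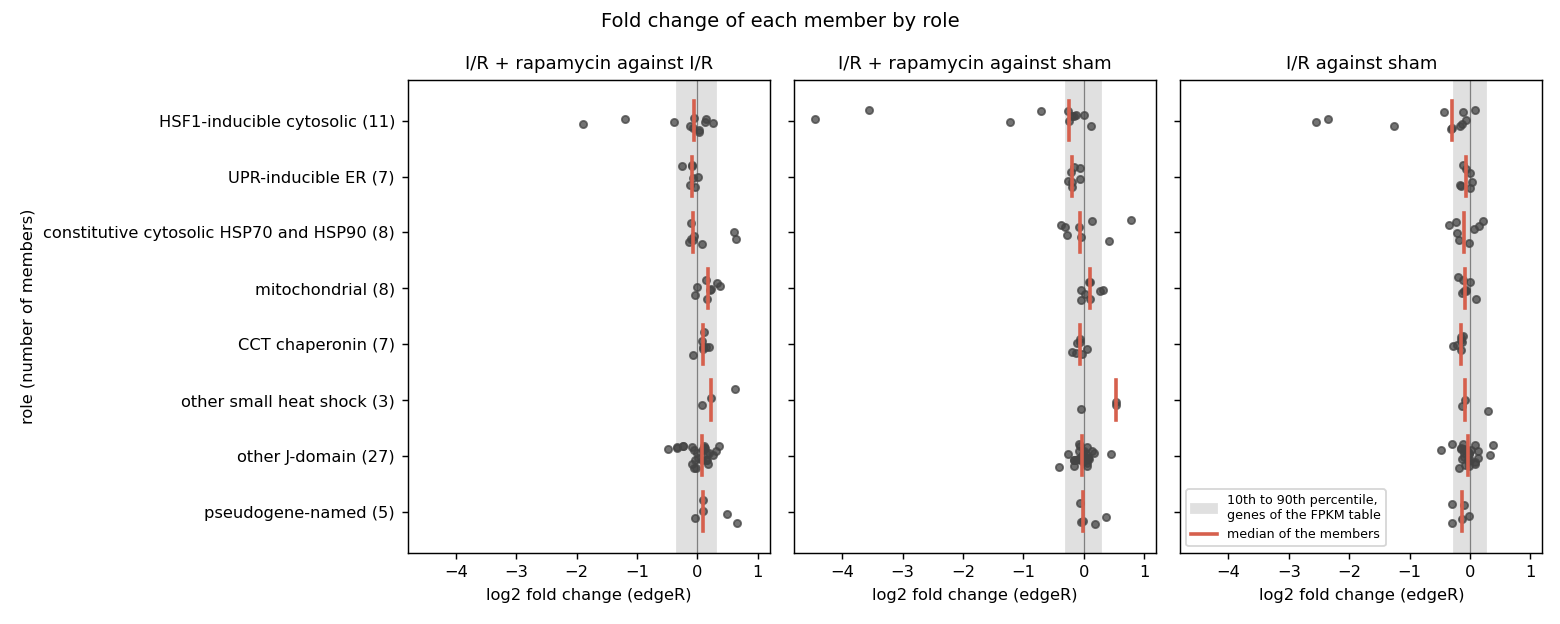
Fitted log2 fold change (edgeR) of each member by role in the 3 comparisons; grey bands run from the 10th to the 90th percentile of the genes of the FPKM table and red bars are medians of the members. Most members lie inside the band, and the members far to the left are Hspa1a and Hspa1b, at -4.45 and -3.55 in I/R + rapamycin against sham.

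**Figure D3:**
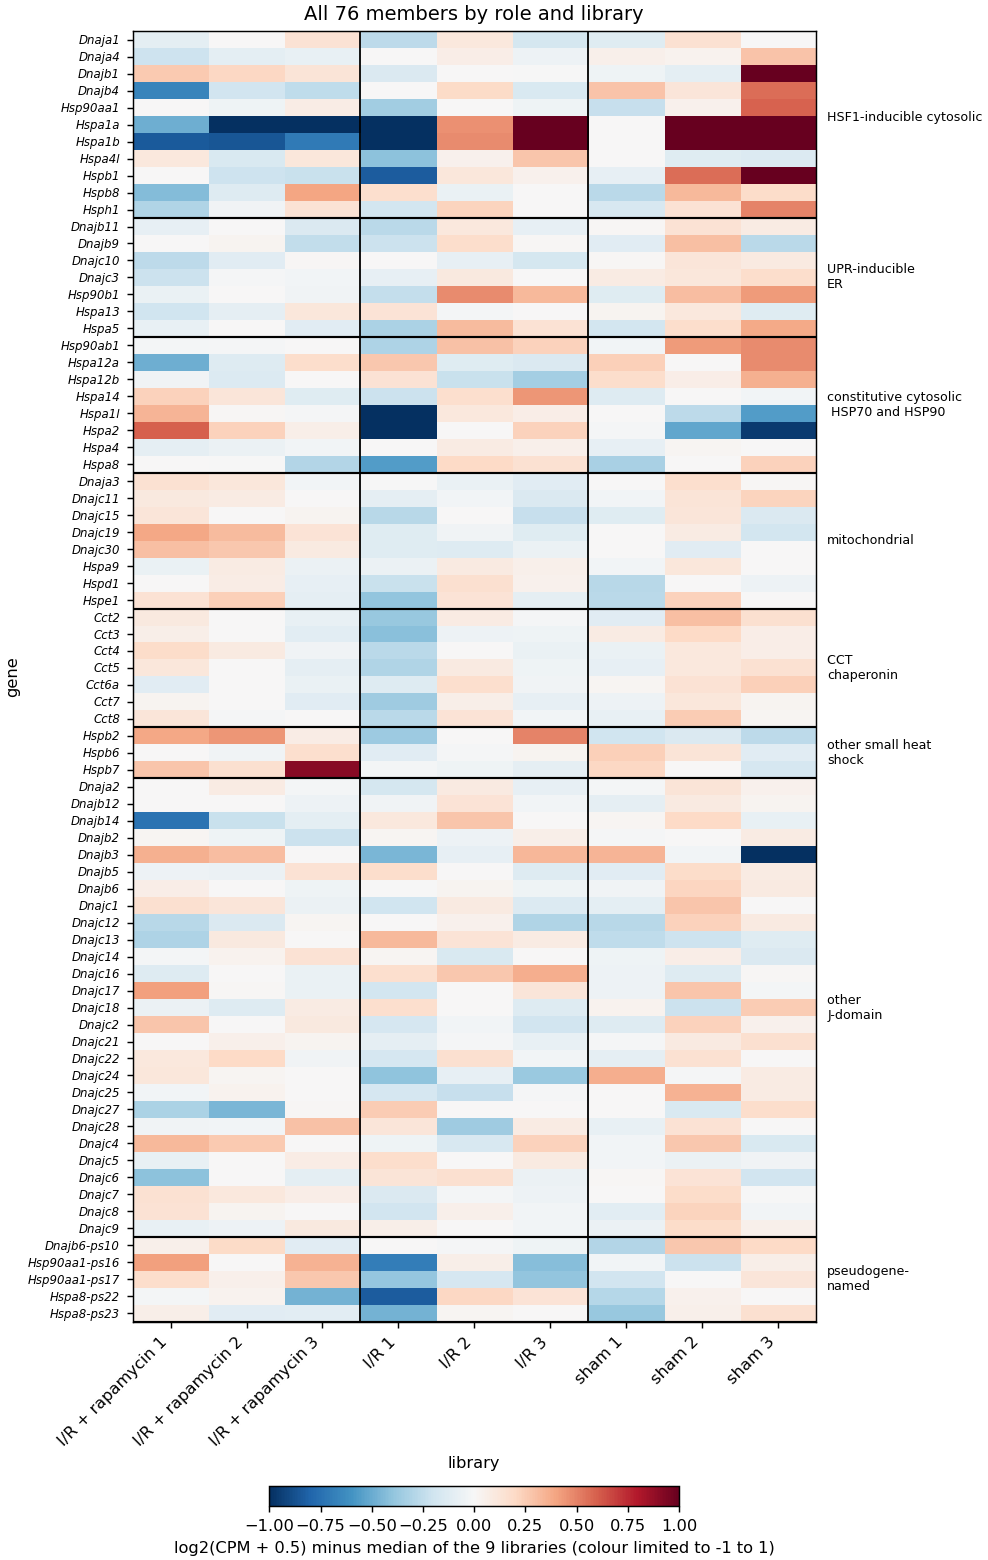
All 76 members in rows by role and the 9 libraries in columns (I/R + rapamycin, I/R, sham), coloured by log2(CPM + 0.5) minus the gene's median, limited to -1 to 1. Among the 11 HSF1-inducible rows sham 3 is the highest library for 8 and I/R 1 the lowest for 6, and I/R 1 is the lowest library for all 7 CCT rows.

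The inducible HSP70 genes differed widely between libraries of the same group, and no HSF1-inducible member was called by edgeR in any comparison. Hspa1a and Hspa1b encode the stress-inducible HSP70, nearly identical proteins from neighbouring genes. Hspa1b was at 29.9, 29.6 and 32.8 CPM in the I/R + rapamycin libraries, at 22.4, 75.3 and 115 CPM in I/R libraries, and 54.0, 174 and 856 CPM in the sham libraries. The rapamycin libraries were close to each other and below all sham libraries, and the I/R libraries reached from below the rapamycin group into the sham range. Its highest sham library was 15.8 times its lowest, a spread that 0.203% of the 11308 genes with a mean of at least 5 CPM matched or passed in sham. Its log2 fold change was -3.55 (SE 1.10, edgeR adjusted p = 0.249) in I/R + rapamycin against sham. It was -1.21 (SE 1.02, edgeR adjusted p = 0.606) with rapamycin against I/R, and -2.35 (SE 1.05, edgeR adjusted p = 0.560) for I/R against sham. Without sham 3 the log2 fold change of Hspa1b was -1.89 (edgeR adjusted p = 0.448) in I/R + rapamycin against sham and -0.69 (adjusted p = 0.811) in I/R against sham. Without both sham 3 and I/R 1 it was -1.63 (edgeR adjusted p = 0.261) with rapamycin against I/R, and -0.26 (adjusted p = 0.915) for I/R against sham.

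Hspa1a was at 20.1, 5.44 and 5.30 CPM in the I/R + rapamycin libraries, at 12.3, 39.3 and 62.6 CPM in I/R libraries, and 28.5, 90.4 and 550 CPM in the sham libraries. All 3 rapamycin libraries lay below all 3 sham libraries, and rapamycin and I/R libraries overlapped through rapamycin 1 and I/R 1. The log2 fold change of Hspa1a was -4.45 in I/R + rapamycin against sham (SE 1.36, edgeR adjusted p = 0.247) and -2.54 without sham 3 (adjusted p = 0.439). DESeq2 called both genes in that comparison, with an adjusted p of 0.00643 for Hspa1a and 0.00932 for Hspa1b. The deposited table lists the 2 genes at overlapping intervals on opposite strands. The strand setting of the counting is not given in the sources used here, so reads of the 2 genes may be mixed and their separate values are uncertain. As a pair they were at 50.03, 35 and 38.1 CPM with rapamycin, 34.7, 115 and 178 CPM in I/R and 82.5, 265 and 1406 CPM in sham. The pair's log2 fold change was -3.83 (SE 1.14, edgeR adjusted p = 0.237) in I/R + rapamycin against sham, a sum that was tested after the data were seen. Without sham 3 the pair was at -2.08 in that comparison (edgeR adjusted p = 0.419). Hspa1a took 15.5% and 13.9% of the pair's counts in I/R + rapamycin 2 and 3 and 34.2% to 40.3% in the other 7 libraries.

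The small heat shock protein Hspb1 (HSP27), which binds unfolded clients and actin filaments, was at 18.4, 15.8 and 15.7 CPM with rapamycin, at 10.1, 19.9 and 18.9 CPM in I/R and at 17.3, 27.3 and 71.8 CPM in sham. The groups overlapped through sham 1, and the log2 fold change in I/R against sham was -1.25 (SE 0.522, edgeR adjusted p = 0.525), or -0.45 without sham 3 (adjusted p = 0.647). With rapamycin against sham the Hspb1 value was -1.22 (edgeR adjusted p = 0.362), or -0.43 without sham 3 (adjusted p = 0.646). Dnajb1 (HSP40), the main J-domain partner of the inducible HSP70, was at 66.5, 64.0 and 60.5 CPM with rapamycin, at 50.1, 55.4 and 55.1 CPM in I/R and at 53.7, 51.8 and 112 CPM in sham. For Dnajb1 the rapamycin libraries were all above the I/R libraries, while sham 3 alone was far above the rest. Its log2 fold change in I/R + rapamycin against I/R was 0.25 (SE 0.265, edgeR adjusted p = 0.685). In I/R + rapamycin against sham the Dnajb1 value was -0.19 with all libraries and 0.27 without sham 3, a change of sign (edgeR adjusted p = 0.803 and 0.323). Hsp90aa1, the stress-inducible HSP90, was likewise highest in sham 3, with 283, 276 and 298 CPM in the rapamycin group, 222, 284 and 275 CPM in the I/R group and 242, 291 and 426 CPM in the sham group. The Hsp90aa1 log2 fold change in I/R + rapamycin against sham was -0.163, and 0.098 without sham 3 (edgeR adjusted p = 0.741 and 0.854).

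HSF1 binds inverted repeats of GAA called heat shock elements, and these letters were searched for in the promoters of the members. RefSeq promoters of build GRCr8 (250 bases before to 50 after the start) were matched by Entrez gene ID for 58 of the 76 members and 8 of the 11 HSF1-inducible ones. The promoters of Hspa1b, Hsp90aa1 and Dnajb4 were not analysed here. A 3-unit element, GAANNTTCNNGAA on either strand, was found in 6 of the 58 members (10.3%), against 0.45% of 8451 promoters of genes in the table. The 2-unit element, GAANNTTC or TTCNNGAA on either strand, which the longer motif always contains, was found in 6 of the 8 HSF1-inducible members (75%) and 18 of all 58 (31%), against 11.6% of the 8451 promoters. The 2-unit element was in 3 of 6 mitochondrial (50%), 3 of 7 CCT (42.9%) and 1 of 2 other small heat shock promoters (50%). Constitutive cytosolic, other J-domain and ER promoters held it at 28.6%, 14.3% and 0%. The 3-unit element was in 2 of 8 HSF1-inducible (25%), 2 of 6 mitochondrial (33.3%), 1 of 7 CCT and 1 of 7 constitutive promoters. The mitochondrial ones, in Hspd1 and Hspe1, are the same stretch on opposite strands. Those of Dnaja1 and Cct4 lie after the start. The stretches of 4 inducible members are shown as examples of the 3-unit element (Hsph1) and the 2-unit element (the others) before the start, with the element in capitals.
Hsph1: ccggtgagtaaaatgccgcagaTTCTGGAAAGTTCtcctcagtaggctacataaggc
Hspb1: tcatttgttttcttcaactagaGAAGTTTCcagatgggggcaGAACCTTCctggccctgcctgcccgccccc
Dnajb1: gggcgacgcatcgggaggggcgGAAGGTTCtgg
Hspb8: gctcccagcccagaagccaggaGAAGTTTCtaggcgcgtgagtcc
In GRCr8 these lie at chr12:10427310-10427366 on the plus strand for Hsph1, chr12:26432381-26432452 on the minus strand for Hspb1, chr19:41431142-41431174 on the minus strand for Dnajb1 and chr12:45837263-45837307 on the plus strand for Hspb8. The stretch ends 2 bases before the start of Hsph1 and 80 bases before that of Hspb1. A match is a description of the letters and not of binding. Hspa1a has no such match in its RefSeq window, which says only that these letters are not in it.

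**Figure D4:**
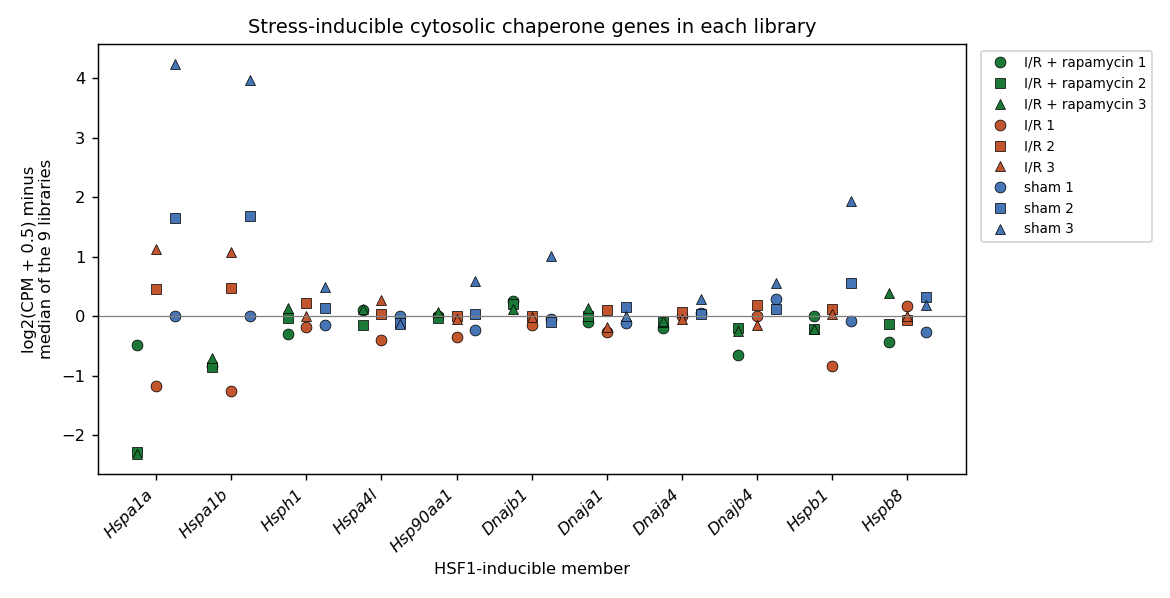
The 11 HSF1-inducible members by library, as log2(CPM + 0.5) minus the gene's median over the 9 libraries; colours are groups and shapes replicates. Sham 3 (blue triangles) is the highest library for 8 of the 11 genes, with Hspa1a at 550 CPM and Hspa1b at 856 CPM, and I/R 1 (orange circles) is the lowest for 6.

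Dnajb4, a J-domain partner of HSP70 in muscle and other tissues, was at 18.2, 25.4 and 24.3 CPM with rapamycin, at 29.0, 33.3 and 26.1 CPM in I/R and at 35.5, 31.7 and 43.0 CPM in sham. Rapamycin libraries lay below both other groups without overlap. Dnajb4 had a log2 fold change of -0.70 (SE 0.157, edgeR adjusted p = 0.115, DESeq2 adjusted p = 0.00508) in I/R + rapamycin against sham, lower in 3 of 3 libraries, and -0.38 (SE 0.157, edgeR adjusted p = 0.272) against I/R. Without sham 3 the value against sham was -0.58 (edgeR adjusted p = 0.231), so Dnajb4 rested less on that library than Hspa1a, Hspa1b and Hspb1 did. Dnaja4, a J-domain protein of the same class as Dnaja1, was at 24.7, 26.7 and 27.0 CPM with rapamycin, at 28.6, 29.9 and 27.5 CPM in I/R and at 29.6, 29.3 and 34.98 CPM in sham. Its rapamycin libraries also lay below the others without overlap, at a log2 fold change of -0.26 against sham (SE 0.0993, edgeR adjusted p = 0.292).

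Hsph1 (HSP110), which releases ADP from HSP70, was at 71.1, 85.4 and 96.5 CPM with rapamycin, at 77.0, 102 and 87.4 CPM in I/R and at 78.4, 96.6 and 123.4 CPM in sham, with all groups overlapping. The groups also overlapped for Dnaja1, a farnesylated J-domain partner of HSP70 and HSP90 (222 to 296 CPM over all libraries), Hspa4l, an HSP110 relative (13.3 to 21.7 CPM), and Hspb8, which works with Bag3 in clearing misfolded proteins (5.13 to 9.51 CPM). Over the 11 members the median log2 fold change was -0.24 with rapamycin against sham, -0.055 with rapamycin against I/R, and -0.30 for I/R against sham. The fitted value was negative for 9, 6 and 10 of the 11 in that order. An unadjusted edgeR p under 0.05 was found for 4 of the 11 (36.4%), all lower, with rapamycin against sham, beside 13.8% of all genes. It was found for 1 (9.09%) with rapamycin against I/R and 1 (9.09%) for I/R against sham, beside 16.3% and 9.42%. Groups did not overlap for 4 (36.4%), 3 (27.3%) and 0 of the 11 in the order of the medians, beside 19.3%, 24.6% and 14.6% of all genes. Without sham 3 the median was -0.077 with rapamycin against sham and -0.038 for I/R against sham.

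Libraries with much Hspa1a and Hspa1b RNA were also those with much immediate early RNA. The summed FPKM of 18 measured immediate early genes of a list of 23 was 306 to 326 in the rapamycin libraries, 316, 942 and 1072 in the I/R libraries and 417, 703 and 1218 in the sham libraries. The pair of HSP70 genes was lowest in the same I/R library and highest in the same sham library. Jun, a subunit of the AP-1 transcription factor, was at 104, 107 and 136 CPM with rapamycin, 166, 562 and 582 CPM in I/R and 255, 514 and 813 CPM in sham. All 8 macrophage markers measured were highest in sham 3, where they summed to 243 FPKM against 141 and 136 FPKM in the other sham libraries. Sham 3 was also the highest library for 5 of 10 proximal tubule, 3 of 8 collecting duct and 3 of 7 smooth muscle markers. It was the highest for 2 of 9 endothelial, 1 of 7 loop and distal tubule and 1 of 6 podocyte markers. The part that these transcripts, handling of the tissue or cell makeup have in the heat shock values was not tested. In bulk kidney, fewer cells of a type and less RNA per cell cannot be told apart.

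**Figure D5:**
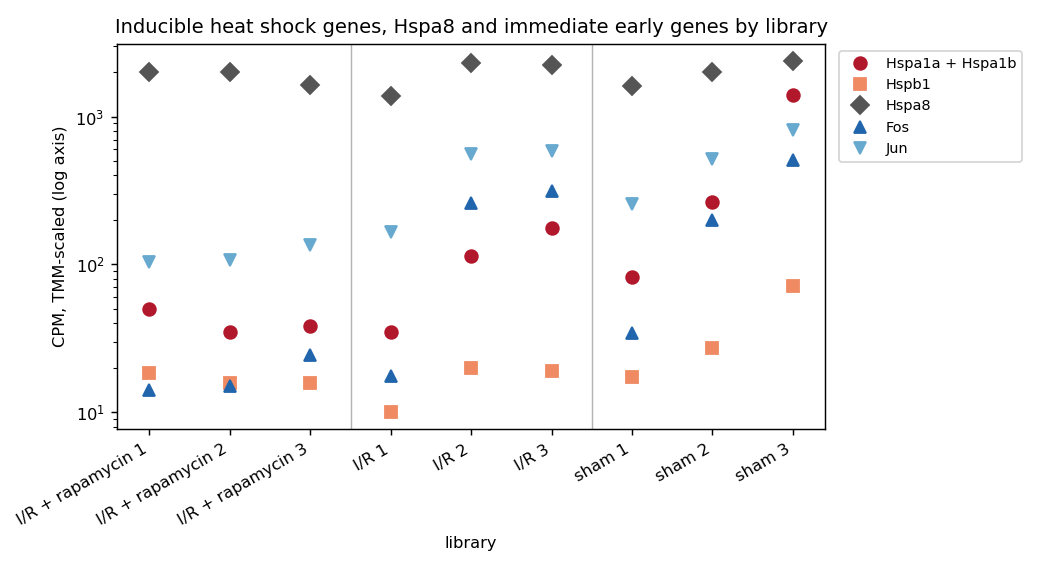
CPM (log axis) by library of the summed Hspa1a and Hspa1b, Hspb1, the constitutive Hspa8 and the immediate early genes Fos and Jun. The HSP70 pair spans 82.5 to 1406 CPM within sham and 34.7 to 178 CPM within I/R, and Fos and the pair share their highest library in each of those groups, while Hspa8 stays between 1371 and 2363 CPM.

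Hspa8, Hsp90ab1 and Hspa4 are constitutive members of the same families as the inducible HSP70, HSP90 and HSP110. Hspa8 was at 2016, 2010 and 1645 CPM with rapamycin, at 1371, 2320 and 2236 CPM in I/R and at 1609, 2019 and 2363 CPM in sham, so all groups overlapped (log2 fold change -0.064, SE 0.207, edgeR adjusted p = 0.915 in I/R + rapamycin against I/R). Per length, Hspa8 RNA was 55.0, 87.8 and 66.5 times the summed inducible HSP70 RNA with rapamycin, 55.0, 28.3 and 17.5 times in I/R and 27.3, 10.7 and 2.3 times in sham. Hsp90ab1 was at 675, 680 and 684 CPM with rapamycin, 553, 839 and 803 CPM in I/R and 670, 918 and 951 CPM in sham. Its FPKM was 2.42 to 2.60 times that of Hsp90aa1 in the rapamycin libraries, 2.63 to 3.12 times in I/R and 2.35 to 3.32 times in sham. Hspa4, a constitutive HSP110 relative, was among the steadiest members, at 237, 242 and 246 CPM with rapamycin, 252, 267 and 260 CPM in I/R and 238, 254 and 252 CPM in sham. Its rapamycin libraries all lay below its I/R libraries by a small step (log2 fold change -0.10, SE 0.0788, edgeR adjusted p = 0.542). For the 8 constitutive cytosolic members the median log2 fold change in I/R against sham was -0.098. It was -0.086 without sham 3, 0.137 without I/R 1 and 0.163 without both, a change of sign for a value with no test.

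Hspa8 has the 3-unit heat shock element at 2 places before its start, which is why its promoter is shown although the gene is called constitutive.
Hspa8: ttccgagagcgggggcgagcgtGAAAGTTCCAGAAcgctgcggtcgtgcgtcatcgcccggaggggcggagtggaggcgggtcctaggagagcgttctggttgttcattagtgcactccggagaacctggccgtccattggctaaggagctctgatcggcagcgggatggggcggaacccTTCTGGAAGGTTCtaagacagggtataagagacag
The stretch is chr8:50080279-50080493 on the plus strand of GRCr8, and the elements begin 213 and 55 bases before the start.

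Hspa2 and Hspa1l, 2 of the low constitutive members, were both lowest in I/R 1. Hspa2, an HSP70 that is most abundant in testis, was at 19.8, 15.3 and 13.5 CPM with rapamycin, at 2.95, 13.0 and 15.3 CPM in I/R and at 12.9, 8.87 and 6.42 CPM in sham. The rapamycin libraries were all above the sham libraries, but the log2 fold change of 0.79 had an SE of 0.545 (edgeR adjusted p = 0.575). Hspa1l, a germ cell HSP70 next to Hspa1a and Hspa1b, had 10 counts in I/R 1 and 179 to 278 counts in the other 8 libraries. That is 0.180 CPM in I/R 1, against 5.01 and 4.87 CPM in I/R 2 and 3, 4.59 to 6.00 CPM with rapamycin and 2.98 to 4.63 CPM in sham. Hspa1l was the least abundant member at a mean of 1.37 FPKM, and the log2 fold change of Hspa2 in I/R + rapamycin against I/R was 0.64 with all libraries and 0.20 without I/R 1 (edgeR adjusted p = 0.605 and 0.809). Hspa12a and Hspa12b, distant HSP70 relatives, and Hspa14, a ribosome-bound HSP70, had log2 fold changes between -0.37 and 0.21 over the 3 comparisons, with edgeR adjusted p from 0.410 to 0.875.

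Members that the unfolded protein response induces in the ER had no call by edgeR or DESeq2 in any comparison. An unadjusted edgeR p under 0.05 was found for 1 of the 7, Dnajc3 in I/R + rapamycin against sham (14.3%, beside 13.8% of all genes). Hspa5, the ER HSP70 that also restrains the stress sensors, was at 500, 525 and 485 CPM with rapamycin, at 420, 653 and 580 CPM in I/R and at 461, 592 and 681 CPM in sham. Hsp90b1, the ER HSP90, was at 461, 481 and 469 CPM with rapamycin, at 407, 669 and 602 CPM in I/R and at 443, 595 and 646 CPM in sham. In both genes I/R 1 and sham 1 were the low libraries of their groups, and the rapamycin libraries fell between. The log2 fold change in I/R + rapamycin against sham was -0.20 for Hspa5 (SE 0.175, edgeR adjusted p = 0.657) and -0.26 for Hsp90b1 (SE 0.185, edgeR adjusted p = 0.582). The fitted value in that comparison was negative for all 7 ER members, with a median of -0.19. Without sham 3 the values in that comparison were -0.069 for Hspa5, -0.15 for Hsp90b1 and a median of -0.155 for the 7. Rapamycin and sham libraries did not overlap for 2 of the 7 (28.6%), beside 19.3% of all genes. Dnajc3 (P58IPK), an inhibitor of the kinase PERK, was at 36.9, 42.6 and 42.1 CPM with rapamycin and at 45.6, 46.4 and 48.6 CPM in sham (log2 fold change -0.21, SE 0.0884, edgeR adjusted p = 0.338). Dnajb11 (ERdj3), a J-domain partner of Hspa5, was at 91.0, 96.2 and 86.8 CPM with rapamycin and at 96.8, 106 and 102 CPM in sham (log2 fold change -0.15, SE 0.1, edgeR adjusted p = 0.533).

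For Dnajc10, an ER disulfide reductase, the I/R libraries (136, 128 and 120 CPM) lay below the sham libraries (137, 148 and 144 CPM), at a log2 fold change of -0.16 (SE 0.092, edgeR adjusted p = 0.643). Dnajb9, a further Hspa5 partner that is strongly induced in ER stress, ranged from 40.6 to 60.7 CPM, and Hspa13, a microsomal HSP70, from 37.9 to 48.0 CPM, with all groups overlapping. The ER stress element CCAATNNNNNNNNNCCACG on either strand was found in 3 of the 7 ER members and in 0 promoters of the other roles, against 0.142% of the 8451 promoters. Those stretches are shown with the element in capitals. In the HSF1-inducible group 0 of 8 promoters held it. At a share of 0.142% over all promoters, 0 of 8 cannot tell that group from other genes, and the remaining ER promoters lacked the element too.
Hspa5: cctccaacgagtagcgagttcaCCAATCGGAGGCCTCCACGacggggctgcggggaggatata
Dnajc3: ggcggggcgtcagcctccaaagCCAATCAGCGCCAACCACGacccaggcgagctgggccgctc
Hsp90b1: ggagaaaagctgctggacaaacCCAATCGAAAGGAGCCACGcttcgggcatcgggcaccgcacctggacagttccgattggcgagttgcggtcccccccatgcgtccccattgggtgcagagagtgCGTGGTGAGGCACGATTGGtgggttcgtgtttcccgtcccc
They lie at chr3:38452951-38453013 (plus strand), chr15:102432512-102432574 (plus strand) and chr7:23012325-23012491 (minus strand) of GRCr8. Hsp90b1 holds the element on each strand. None of the 7 ER promoters held a 2-unit heat shock element.

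Of the 8 mitochondrial members, 6 were fitted higher with rapamycin against I/R and 6 against sham, by small steps. Dnajc19, a J-domain protein of the import motor of the inner membrane, was at 65.6, 62.4 and 54.9 CPM with rapamycin, at 45.8, 48.8 and 46.0 CPM in I/R and at 49.98, 53.0 and 43.9 CPM in sham. All rapamycin libraries were above all others. The log2 fold change of Dnajc19 was 0.38 (SE 0.0968, edgeR adjusted p = 0.132, DESeq2 adjusted p = 0.0232) against I/R and 0.32 (SE 0.0968, edgeR adjusted p = 0.204) against sham. Dnajc30, a mitochondrial J-domain protein that takes part in the repair of respiratory complex I in human cells, was at 26.6, 26.0 and 22.9 CPM with rapamycin, at 19.7, 19.6 and 20.7 CPM in I/R and at 21.5, 19.8 and 21.5 CPM in sham. It too was higher in 3 of 3 rapamycin libraries, with a log2 fold change of 0.33 against I/R (SE 0.0973, edgeR adjusted p = 0.167, DESeq2 adjusted p = 0.0497) and 0.26 against sham (SE 0.0973, edgeR adjusted p = 0.275). With the length trend removed the Dnajc30 value against I/R was 0.18 (edgeR adjusted p = 0.432) and that of Dnajc19 was 0.40 (adjusted p = 0.120).

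Rapamycin and I/R libraries also did not overlap for Dnajc11, a protein of the cristae-organizing complex, with 45.9, 45.5 and 42.9 CPM with rapamycin against 40.3, 42.1 and 38.7 CPM in I/R. Its log2 fold change was 0.15 (SE 0.0878, edgeR adjusted p = 0.432). In I/R against sham the same gene was lower without overlap, with sham at 42.1, 46.9 and 50.2 CPM (log2 fold change -0.20, SE 0.0877, edgeR adjusted p = 0.516). The abundant matrix chaperones had fitted values near 0. Hspa9 was at 588, 652 and 591 CPM with rapamycin, 593, 657 and 639 CPM in I/R and 605, 665 and 616 CPM in sham. Hspd1 was at 677, 714 and 641 CPM with rapamycin, 581, 755 and 697 CPM in I/R and 558, 678 and 655 CPM in sham. The log2 fold change in I/R + rapamycin against I/R was -0.045 for Hspa9 (SE 0.0962, edgeR adjusted p = 0.860) and -0.001 for Hspd1 (SE 0.123, edgeR adjusted p = 0.998). Over the 8 mitochondrial members the median with rapamycin was 0.18 against I/R and 0.10 against sham, and edgeR called none of them. Rapamycin and I/R libraries did not overlap for 4 of the 8 (50%), all higher with rapamycin, beside 24.6% of all genes. The count was 2 (25%) with rapamycin against sham and 2 (25%) for I/R against sham, beside 19.3% and 14.6%. An unadjusted edgeR p under 0.05 was found for 2 (25%), 2 (25%) and 1 (12.5%) in these comparisons, beside 16.3%, 13.8% and 9.42% of all genes.

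Hspd1 and Hspe1 form the 2 parts of the mitochondrial folding cage and are read in opposite directions from a shared region. The letter search found a single cluster of heat shock elements in the RefSeq sequence between them, seen here from each gene's own strand.
Hspd1: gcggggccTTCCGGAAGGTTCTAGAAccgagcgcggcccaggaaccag
Hspe1: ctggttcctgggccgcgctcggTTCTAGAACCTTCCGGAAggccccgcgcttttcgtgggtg
The stretches are chr9:64084240-64084287 on the minus strand and chr9:64084240-64084301 on the plus strand of GRCr8. Hspe1 was at 204, 217 and 173 CPM with rapamycin, at 140, 203 and 173 CPM in I/R and at 153, 217 and 184 CPM in sham. The FPKM of Hspd1 was 1.29 to 1.46 times that of Hspe1 with rapamycin, 1.46 to 1.63 times in I/R and 1.23 to 1.43 times in sham.

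The CCT subunits, which make up an 8-subunit ring and so are needed in like amounts, had no call by edgeR or DESeq2, and the direction of their small steps with rapamycin against I/R rested on I/R 1. The 7 subunits matched by the rule ranged from 24.4 to 77.2 FPKM, with Cct2 the highest (mean 64.9 FPKM) and Cct8 the lowest (mean 28.4 FPKM). Their summed level was 305, 289 and 286 FPKM with rapamycin, 255, 308 and 302 FPKM in I/R and 303, 333 and 326 FPKM in sham. I/R 1 was the lowest library for all 7. The fitted value was negative for 7 of 7 in I/R against sham (median -0.15) and positive for 6 of 7 in I/R + rapamycin against I/R (median 0.09). Without I/R 1 the value against I/R was positive for 2 of 7, Cct3 and Cct4, with a median of -0.015, and the median in I/R against sham was -0.069. Cct3 was at 120, 115 and 107 CPM with rapamycin, 85.9, 111 and 111 CPM in I/R and 121, 132 and 120 CPM in sham. Both other groups lay below sham for this subunit, with a log2 fold change of -0.28 in I/R against sham (SE 0.108, edgeR adjusted p = 0.464) and -0.13 in I/R + rapamycin against sham (SE 0.108, edgeR adjusted p = 0.642). Cct4 had the largest rapamycin value of the 7 against I/R at 0.19 (SE 0.0989, edgeR adjusted p = 0.363). Without I/R 1 it was 0.12 for Cct4 (edgeR adjusted p = 0.655), and -0.17 for Cct3 in I/R against sham (adjusted p = 0.564).

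Among the J-domain proteins with other roles, Dnajc16 and Dnajc13 were the members with the smallest p in I/R against sham. Dnajc16, an ER membrane J-domain protein, was at 35.04, 38.5 and 36.6 CPM with rapamycin, at 43.2, 46.4 and 49.7 CPM in I/R and at 37.1, 35.1 and 38.7 CPM in sham. The I/R libraries lay above both other groups, which overlapped each other. Its log2 fold change was 0.33 for I/R against sham (SE 0.0869, edgeR adjusted p = 0.283) and -0.34 with rapamycin against I/R (SE 0.0870, edgeR adjusted p = 0.134, DESeq2 adjusted p = 0.0244). With the length trend removed the Dnajc16 value against I/R was -0.22 (edgeR adjusted p = 0.271). Dnajc13 (RME-8), which works in endosome sorting, was at 142, 188 and 176 CPM with rapamycin, at 221, 195 and 186 CPM in I/R and at 148, 153 and 162 CPM in sham. I/R was above sham without overlap, at a log2 fold change of 0.38 (SE 0.115, edgeR adjusted p = 0.331).

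Dnajb14, an ER membrane J-domain protein, was at 5.01, 7.38 and 8.11 CPM with rapamycin, below 9.38, 10.7 and 8.70 CPM in I/R and 8.84, 10.1 and 8.25 CPM in sham. Dnajb14 had a log2 fold change of -0.48 against I/R (SE 0.188, edgeR adjusted p = 0.252). The abundant Dnaja2, a general HSP70 partner, ranged from 139 to 172 CPM with all groups overlapping (0.07 against I/R, SE 0.0917, edgeR adjusted p = 0.737). Dnajc22 and Dnajc8, a spliceosome-associated protein, also overlapped between all groups. Over the 27 members of this class the median log2 fold change was 0.07 with rapamycin against I/R, -0.024 with rapamycin against sham, and -0.034 for I/R against sham, with an unadjusted edgeR p under 0.05 for 5, 0 and 3 of them. These are 18.5%, 0% and 11.1% of the class, beside 16.3%, 13.8% and 9.42% of all genes.

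The small heat shock members outside the HSF1 list were low. Hspb2, expressed mainly in muscle, was at 18.3, 19.0 and 14.6 CPM with rapamycin, at 10.7, 13.9 and 19.8 CPM in I/R and at 12.0, 12.5 and 11.5 CPM in sham. Rapamycin libraries were above sham without overlap at a log2 fold change of 0.53 (SE 0.200, edgeR adjusted p = 0.288). Hspb7, a muscle member that binds filamin, was at 3.51, 3.20 and 5.72 CPM with rapamycin, above 2.77, 2.70 and 2.61 CPM in the I/R group (log2 fold change 0.62, SE 0.252, edgeR adjusted p = 0.267). Hspb6, which is abundant in smooth muscle, ranged from 25.2 to 32.3 CPM with all groups overlapping. Smooth muscle markers summed to 102 to 120 FPKM with rapamycin, 122 to 138 FPKM in I/R and 114 to 160 FPKM in sham. Of their groups, rapamycin 3, I/R 3 and sham 3 held the highest of these sums. Hspb2 was the highest of its group in I/R 3 but the lowest in rapamycin 3 and sham 3. Hspb7 was the highest of its group in rapamycin 3 and the lowest in I/R 3. The part of smooth muscle in the Hspb2 and Hspb7 values was not tested.

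Of the 5 genes with pseudogene symbols, Hsp90aa1-ps17 had the smallest p in I/R + rapamycin against I/R. It was at 43.0, 39.4 and 46.0 CPM with rapamycin, at 28.9, 33.7 and 28.8 CPM in I/R and at 33.2, 38.0 and 41.4 CPM in sham, with a log2 fold change of 0.49 against I/R (SE 0.111, edgeR adjusted p = 0.115, DESeq2 adjusted p = 0.00825). With the length trend removed it was 0.31 (edgeR adjusted p = 0.237). Its counts were 14.3% to 15.4% of those of Hsp90aa1 in the rapamycin libraries, 10.5% to 13.0% in I/R and 9.71% to 13.7% in sham. Reads of such copies and of their parent gene can be split by the counting, so these values are uncertain. Counts of Hspa8-ps22 were 2.12% to 2.67% of those of Hspa8 over all libraries and those of Hspa8-ps23 1.08% to 1.40%.

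Genes of the same pathways outside the 76 gave few calls as well. Of 25 measured genes of 27 on a list of HSF1, its targets and co-chaperones, 0 passed edgeR and 1 passed DESeq2 in each comparison. DESeq2 called 4%, 3.22% and 1.4% of all genes with rapamycin against I/R, with rapamycin against sham and for I/R against sham. An unadjusted edgeR p under 0.05 was found for 4 (16%) in each comparison, beside 16.3%, 13.8% and 9.42% of all genes in that order. The median log2 fold change of the 25 was 0.10 with rapamycin against I/R, -0.016 with rapamycin against sham, and -0.14 for I/R against sham. Fkbp5, a co-chaperone of HSP90 in steroid receptor complexes and a known glucocorticoid target that also binds rapamycin, was at 130, 143 and 95.4 CPM with rapamycin, at 68.4, 88.2 and 74.5 CPM in I/R and at 67.7, 73.9 and 91.4 CPM in sham. The Fkbp5 libraries with rapamycin were above all others. Fkbp5 had a log2 fold change of 0.67 against I/R (SE 0.164, edgeR adjusted p = 0.126, DESeq2 adjusted p = 0.00795) and 0.66 against sham (SE 0.164, edgeR adjusted p = 0.149, DESeq2 adjusted p = 0.0111). Fkbp4, its counterpart in the same receptor complexes, was at 155, 153 and 192 CPM with rapamycin, 143, 158 and 128 CPM in I/R and 188, 228 and 183 CPM in sham. In I/R against sham its log2 fold change was -0.49 (SE 0.128, edgeR adjusted p = 0.283, DESeq2 adjusted p = 0.0317). Hsf1 itself was at 23.5, 21.4 and 19.6 CPM with rapamycin, 19.2, 20.7 and 20.2 CPM in I/R and 24.5, 20.2 and 20.5 CPM in sham, with overlap throughout.

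Bag1, a factor that releases clients from HSP70, was at 63.2, 51.5 and 50.05 CPM with rapamycin, above 36.9, 46.5 and 42.2 CPM in the I/R group (log2 fold change 0.39, SE 0.122, edgeR adjusted p = 0.179). Bag3, the Hspb8 partner, was at 38.7, 41.3 and 41.9 CPM with rapamycin and 46.2, 63.9 and 49.8 CPM in sham (log2 fold change -0.39, SE 0.148, edgeR adjusted p = 0.285). The polyubiquitin gene Ubb, an HSF1 target, was at 569, 530 and 505 CPM with rapamycin, 461, 655 and 624 CPM in I/R and 590, 736 and 901 CPM in sham, where sham 3 again was the highest library. Of 22 measured genes of 24 in the unfolded protein response and ER folding, 0 passed edgeR or DESeq2 in any comparison. An unadjusted edgeR p under 0.05 was found for 3 with rapamycin against I/R, 3 with rapamycin against sham and 2 for I/R against sham. These are 13.6%, 13.6% and 9.09%, beside 16.3%, 13.8% and 9.42% of all genes. The 2 in I/R against sham were both fitted higher. In that comparison 14 of the 22 were fitted higher (median log2 fold change 0.037), and 19 without I/R 1 and sham 3 (median 0.194). With rapamycin 9 of the 22 were fitted higher against I/R and 13 against sham. Atf6, an ER stress sensor, was at 40.5, 56.0 and 51.8 CPM with rapamycin, 70.7, 70.4 and 64.9 CPM in I/R and 68.5, 54.7 and 79.5 CPM in sham (log2 fold change against I/R -0.47, SE 0.147, edgeR adjusted p = 0.177). Hyou1, the ER HSP110, was at -0.28 against I/R (SE 0.131, edgeR adjusted p = 0.314).

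Partners of the CCT ring were prefoldin subunits, actins, tubulins and helpers, with 12 measured of 14 listed. With rapamycin against I/R 12 of the 12 were fitted higher, with a median log2 fold change of 0.25. An unadjusted edgeR p under 0.05 was found there for 6 (50%), beside 16.3% of all genes. The share was 8.33% with rapamycin against sham and 25% for I/R against sham, beside 13.8% and 9.42% of all genes. In I/R against sham 10 of the 12 were fitted lower, with a median of -0.19, and I/R 1 was the lowest library for 9. Without I/R 1 the counts were 12 and 9 of 12, with medians of 0.16 and -0.13. Pfdn6, a prefoldin subunit that hands actin and tubulin to CCT, was at 26.0, 21.8 and 21.5 CPM with rapamycin, at 12.6, 17.0 and 18.9 CPM in I/R and at 21.3, 27.2 and 27.1 CPM in sham. The I/R libraries of Pfdn6 were below both other groups. Its log2 fold change was 0.52 with rapamycin against I/R (SE 0.163, edgeR adjusted p = 0.181) and -0.64 for I/R against sham (SE 0.163, edgeR adjusted p = 0.276, DESeq2 adjusted p = 0.0317). Over these 12 genes edgeR called 0 in each comparison and DESeq2 called 1, in I/R against sham, where it called 1.4% of all genes.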

How the data were processed

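Poly(A) RNA of 9 rat kidney libraries was sequenced in 150-base paired reads, per the labels' protocols. Tools listed, with no role stated, are cutadapt, HISAT2, StringTie and DESeq2, with build Rnor_6.0, per the submitters' processing notes. Their versions, the annotation, the counting rule and the strand setting were not given in the sources used here. The authors deposited raw counts for 30454 gene IDs, and FPKM values, per the file headers, for 11235 named genes.

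Members, roles and lists were chosen with earlier results of these data known. Counts were tested in R 4.3.3 with edgeR 4.0.16 (TMM, default low-count filter, robust quasi-likelihood, 9 libraries in 1 fit), adjusted over 17335 genes. CPM use TMM-scaled library sizes, and SE is the log2 fold change over the square root of F. The script was tested on simulated data. Alternatives were DESeq2 1.42.0, other scaling factors and filters, the 6 libraries compared alone, a replicate block, removal of the length trend, limma 3.58.1 on log2(FPKM + 1) and log2(FPKM + 0.1), and libraries left out. The summed Hspa1a and Hspa1b counts were added after the data were seen. Libraries differed beyond sampling noise (chi-square per degree of freedom 33.7 to 133), so none was treated as a copy. Depth of 44582251 to 60538627 counts made counting error small.

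Named genes were all HSF1- and ER-inducible members and members called by either tool. In each other role they were drawn from the 3 most abundant and the 2 of smallest p per comparison. From each outside list they were drawn from the 3 of smallest p per comparison, with Hsf1, Fos and Hba-a1. Not all genes picked in these ways are printed. Hspa1l, Cct8 and the other pseudogene-named members were named after their values were seen. Promoter sequences are RefSeq's, build GRCr8. The files' own coordinates are not printed, since their build is unsettled.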

Additional observations from a re-analysis of the deposited data

How the results depend on the processing

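edgeR and limma called 0 of the 76 members in each comparison under every other normalization, filter, library set and left-out library run. The main edgeR fit also called 0 in each comparison at adjusted p under 0.1, a threshold applied to that fit alone. DESeq2 called 4 members with rapamycin against I/R and 3 with rapamycin against sham; the cause was not tested. The median log2 fold change of the HSF1-inducible members in I/R against sham was -0.30, and from -0.365 to -0.038 with 1 library left out; the value nearest 0 is that without sham 3. With rapamycin the same median ran from -0.365 to -0.077 against sham, and against I/R from -0.16 to 0.036, a change of sign for a value with no test. Over 2943 refits of the 49 members picked for naming under the alternatives, 172 had the other sign, 7 were called, all by DESeq2, and 0 were both. Replicate numbers did not pair libraries (correlations of same-numbered deviations from -0.213 to 0.136), and with the replicate block 0 members were called in each comparison. Each group had 3 libraries, and the widest range within sham was 19.3 times, for Hspa1a. What limits these comparisons was not tested.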
